A study of Xenopus laevis with 37 samples.

Results

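The nuclear receptor gene nr5a2 was followed through foregut, hindgut and dorsal tissue of Xenopus laevis tailbud-stage embryos. Its 2 copies, nr5a2.L and nr5a2.S, are 2 of the 40271 gene rows of the deposited table, and both passed the filter on low values that 28863 rows passed. The gene was chosen by its measured values in these same libraries, so its levels and differences are given as a description, without p-values. RNA-seq had been made from explants cut at Nieuwkoop-Faber stage 20 (NF20), and each value is in TPM, a read abundance corrected for transcript length and scaled to a common sum. The table holds 37 libraries in 15 groups, of which 7 have 3 libraries and 8 have 2, described by the labels as independent biological replicates.

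In the inhibitor experiment, wild-type embryos were kept from NF12 to NF20 with the BMP type I receptor inhibitor DMH1 (40 µM), with the GSK3 inhibitor BIO (60 µM), which stabilises beta-catenin and thereby turns on Wnt targets, or with the vehicle DMSO. Hindgut (HG) and foregut (FG) explants of these embryos gave 6 groups of 3 libraries. In the heat shock experiment, embryos with an hsp:Dkk1GFP transgene, which puts the Wnt antagonist Dkk1 joined to GFP under a heat shock promoter, were held at 37C for 30 min and then at 13C (HSdkk1), or were not heated (noHS). Hindgut and foregut explants of these gave 4 groups of 2 libraries. All 4 carry the label wild type as genotype, and no heated library without the transgene was analysed here. Hindgut and foregut explants that were divided into endoderm (endo) and mesoderm (meso), with no treatment named, gave another 4 groups of 2 libraries. Dorsal explants, also wild type and with no treatment named, gave 3.

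NR5A2, also called liver receptor homolog, is a nuclear receptor that binds DNA as a monomer and activates genes without needing an added hormone. In mammals it is expressed in liver, exocrine pancreas and intestine, where it drives genes of bile acid synthesis, cholesterol transport and digestive enzymes, and it acts with beta-catenin in the proliferation of intestinal crypts. In mice it is also needed in early embryos. Xenopus laevis arose from a cross of related frogs and keeps copies of many genes on its long (L) and short (S) chromosome sets, so a gene can be read as an L and an S row.

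Every library summed to between 999208 and 999778 TPM, with 15182 to 22769 rows at 1 TPM or more. TPM does not keep the number of reads, so depth and counting error are unknown. The layers matched their labels in the endoderm genes, but not in the summed level of the mesoderm list. The sum of sox17a.L and sox17a.S, an endoderm transcription factor, was 1945.80 to 2084.11 TPM in HG endo and 6.18 to 14.66 TPM in HG meso, and 546.19 to 984.84 TPM in FG endo and 0.20 to 2.25 TPM in FG meso. The sum of the mesoderm markers overlapped between the layers, at 1357.05 to 1776.7 TPM in HG endo and 1246.51 to 1692.37 TPM in HG meso, and at 562.01 to 1014.73 TPM in FG endo and 551.41 to 669.16 TPM in FG meso. By limma calls the same list leaned to meso. Of its 41 rows tested 53.7% were lower and 26.8% higher in HG endo, against 21.6% and 11.6% of all rows. In FG endo 34.1% were lower and 14.6% higher, against 18% and 8.5% of all rows. Of the neural genes sox3.L was 59.63 and 83.85 TPM in FG endo, against 9.60 and 8.65 TPM in FG meso. The neural list summed to 119.96 to 197.19 TPM in FG endo and 56.18 to 63.84 TPM in FG meso. By limma calls 3 of its 24 rows tested were higher and 1 lower in FG endo. These are 12.5% and 4.17%, against 8.5% and 18% of all rows. At an unadjusted p under 0.05 (limma) 3 were higher and 4 lower, against 10169 of 28863 rows in either direction. The pieces labelled mesoderm also held skin: itln1.L, an epidermal lectin, was 5151.91 to 7857.08 TPM in the 4 meso libraries and 0.00 to 9.26 TPM in the 4 endo libraries. FG endo replicate 1 stood apart from replicate 2, with 3004.56 and 6617.95 TPM over the endoderm marker list, and values that rest on it are given without it where a call, a direction or a count turns on it. The tissue label of the HG meso libraries reads endoderm, against their titles, source names and these markers. In the heat shock experiment dkk1.L was 7.05 to 16.75 TPM in the 4 libraries labelled HSdkk1 and 6.17 to 20.84 TPM in the 4 labelled noHS, so the dkk1 rows do not show the transgene.

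Within the gut, nr5a2 RNA was in the endoderm. In HG endo nr5a2.L was 180.66 and 174.69 TPM, against 0 and 0.20 TPM in HG meso. The S copy was 90.21 and 106.85 TPM in HG endo and 0.16 TPM in both HG meso libraries. For each copy both endoderm libraries lay far above both mesoderm libraries, and the meso values are at a level where the row is barely read. On the log2(TPM + 1) scale the difference, endo minus meso, was 7.35 (SE 0.49) for nr5a2.L and 6.42 (SE 0.44) for nr5a2.S. Because 1 is added before the logarithm, such differences understate the change of a gene that is near 0 in a group. With limma, 11.6% of all rows were higher and 21.6% were lower in HG endo than in HG meso at an adjusted p under 0.05. The called rows were 35% higher ones, or 45.1% after median-of-ratios scaling, which moved the median of all rows to 0 from -0.11. This contrast is among those the choice of nr5a2 rested on, so nothing is read from it.

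In FG endo nr5a2.L was 11.27 and 73.92 TPM, against 0.92 and 0.30 TPM in FG meso. For nr5a2.S the values were 11.05 and 27.96 TPM in FG endo and 0.05 and 0.06 TPM in FG meso. The groups did not overlap for either copy, but the 2 FG endo libraries differed widely, replicate 1 being the low one for both copies. The difference, endo minus meso, was 4.26 (SE 0.49) for nr5a2.L and 4.15 (SE 0.44) for nr5a2.S. Without FG endo replicate 1 it was 5.57 for nr5a2.L and 4.78 for nr5a2.S, and without replicate 2 it was 2.96 and 3.51 for the same copies. Among all rows 8.5% were higher and 18% lower in FG endo than in FG meso, a balance that rests on the same libraries: it was 14% and 13.1% without FG endo replicate 1 and 7.31% and 25.3% without replicate 2. The 20 endoderm marker rows tested gave 15 that were higher in HG endo than in HG meso, and 13 higher and 2 lower in FG endo than in FG meso, where 13 were higher and 1 lower without FG endo replicate 1, and 10 and 1 without replicate 2. All 22 epidermal marker rows were lower in endo in both comparisons, their sum being 1560.96 to 1597.24 TPM in HG endo and 37491.3 to 45571.4 TPM in HG meso, and 1573.06 to 1648.25 TPM in FG endo and 48693.1 to 58260.7 TPM in FG meso. The epidermal gene tp63.L was listed at 0 in 3 of the 4 endo libraries and was 0.21 TPM in the other, and what part the skin in the meso pieces plays in the layer values was not tested.

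**Figure D1:**
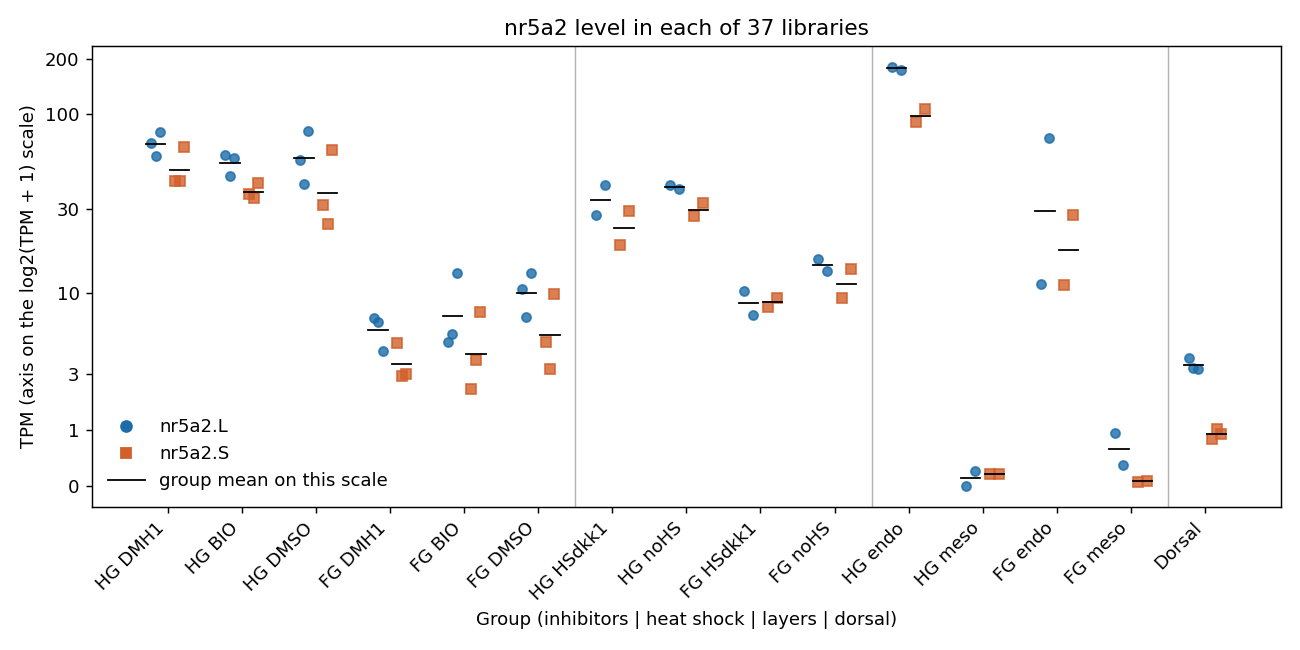
Level of nr5a2.L (circles) and nr5a2.S (squares) in each of the 37 libraries, in TPM on an axis spaced as log2(TPM + 1), with lines at the group means on that scale. HG endo is highest at 174.69 to 180.66 TPM for nr5a2.L, the meso groups lie below 1 TPM, and every hindgut explant group lies above its foregut counterpart.

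Hindgut held more nr5a2 than foregut in all 5 comparisons of like-treated explants. In the vehicle, nr5a2.L was 55.95, 41.56 and 80.59 TPM in HG explants, against 10.55, 7.09 and 13.05 TPM in FG explants. The S copy was 31.74, 24.72 and 63.36 TPM in HG and 4.98, 3.26 and 9.79 TPM in FG. The lowest hindgut library exceeded the highest foregut library for both copies, with means of 59.4 and 10.2 TPM for nr5a2.L and 39.9 and 6.01 TPM for nr5a2.S in HG and FG explants. The ratio of the means was 5.80 for nr5a2.L and 6.65 for nr5a2.S, and the log2 difference was 2.41 (SE 0.40) and 2.54 (SE 0.36) for the same copies. Libraries with the same replicate number in the inhibitor experiment deviated together, and the same-number differences were tight, from 2.30 to 2.54 for nr5a2.L and from 2.45 to 2.59 for nr5a2.S. Of all rows, 2.38% were higher and 5.08% were lower in HG than in FG vehicle explants, so that 31.9% of the called rows were higher, or 47% after median-of-ratios scaling. The median log2 difference of all rows was -0.12, and 0.00714 after median-of-ratios scaling, which left the nr5a2 differences at 2.57 for the L and 2.67 for the S copy.

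The same direction was seen in the other explants. Under BIO the log2 difference, HG minus FG, was 2.75 for nr5a2.L and 2.91 for nr5a2.S. Under DMH1 it was 3.35 for nr5a2.L and 3.49 for nr5a2.S. In the libraries labelled HSdkk1 it was 1.84 and 1.34, and in those labelled noHS 1.40 and 1.32, for the L and the S copy. In none of these 4 comparisons did HG and FG libraries overlap for either copy. The inhibitor experiment had the wider gap, with FG vehicle explants at 16.2 TPM and FG noHS explants at 26.1 TPM for the 2 copies summed, while HG vehicle and HG noHS explants were at 99.3 and 69.8 TPM. The difference between the experiments was not tested.

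In isolated endoderm the hindgut was also higher, as nr5a2.L was 180.66 and 174.69 TPM in HG endo and 11.27 and 73.92 TPM in FG endo. The log2 difference was 2.56 (SE 0.49) for nr5a2.L and 2.41 (SE 0.44) for nr5a2.S. It depends on the FG endo library: without replicate 1 it was 1.25 for nr5a2.L and 1.78 for nr5a2.S, and without replicate 2 it was 3.86 and 3.04 for the same copies. The FG endo libraries stayed below both HG endo libraries for both copies. Between these groups 10.7% of all rows were higher and 7.86% lower in HG endo. That balance turned to 4.21% higher and 8.69% lower without FG endo replicate 1, and it was 22.1% and 7.81% without replicate 2.

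Other tissue also differed between the regions. Of 24 neural marker rows, 3 were higher and 14 lower in HG than in FG vehicle explants, with sums of 41.82 to 108.53 TPM in HG and 258.7 to 596.19 TPM in FG. Of 26 rows of blood and endothelium markers, 12 were lower in HG, with sums of 473.1 to 739.87 TPM in HG and 1434.66 to 1698.86 TPM in FG. The neural gene sox3.L was 1.14 to 5.95 TPM in HG and 54.92 to 84.56 TPM in FG. The 24 endoderm marker rows summed to 1196.79 to 2301.3 TPM in HG and 1934.2 to 2290.45 TPM in FG, with overlapping ranges. That sum joins rows that went opposite ways. In HG darmin.L was 318.39 to 475.48 TPM and foxa2.L 9.51 to 19.92 TPM, against 108.67 to 120.67 and 35.4 to 45.45 TPM in FG. Of the 20 rows tested 5% were higher and 15% lower in HG, against 2.38% and 5.08% of all rows. The part of the amount of endoderm in the nr5a2 values was not tested. In bulk tissue, fewer cells of a type and less RNA per cell cannot be told apart.

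To set nr5a2 against an endoderm gene in the same library, its 2 copies were summed and divided by the 2 copies of sox17a, a measure chosen after seeing the data. Per 100 TPM of sox17a, HG vehicle explants held 33.44, 31.29 and 33.33 TPM of nr5a2, and FG vehicle explants 6.98, 5.61 and 9.68 TPM. The hindgut libraries were all higher, with means of 32.7 ± 1.21 and 7.42 ± 2.07 TPM in HG and FG (SD, n = 3 each). HG endo held 13.00 and 14.47 TPM per 100 TPM of sox17a, against 4.09 and 10.34 TPM in FG endo, again without overlap. Under BIO the mean was 32.3 TPM in HG and 5.28 TPM in FG explants. Under DMH1 it was 36.9 TPM in HG and 5.99 TPM in FG explants. In the heat shock experiment HG libraries labelled HSdkk1 were at 19.73 and 21.69 TPM, and FG libraries labelled HSdkk1 at 14.11 and 6.88 TPM. The noHS libraries were at 23.63 and 17.64 TPM in HG and 15.28 and 10.67 TPM in FG. The dorsal explants held 9.68 to 11.17 TPM of nr5a2 per 100 TPM of sox17a, within the range of foregut tissue, although their nr5a2 level was lower. These ratios, and their lack of overlap, hold for sox17a only. The endoderm gene darmin.L was 4017.52 and 3773.8 TPM in HG endo and 1136.94 and 1357.63 TPM in FG endo. Relative to darmin.L the regions overlapped in nr5a2, both copies summed. FG endo replicate 2 had 101.88 TPM of nr5a2 beside 1357.63 TPM of darmin.L, and HG endo replicate 1 had 270.87 beside 4017.52 TPM. In vehicle, FG DMSO replicate 3 had 22.84 TPM of nr5a2 beside 112.84 TPM of darmin.L, and HG DMSO replicate 1 had 87.69 beside 475.48 TPM.

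**Figure D2:**
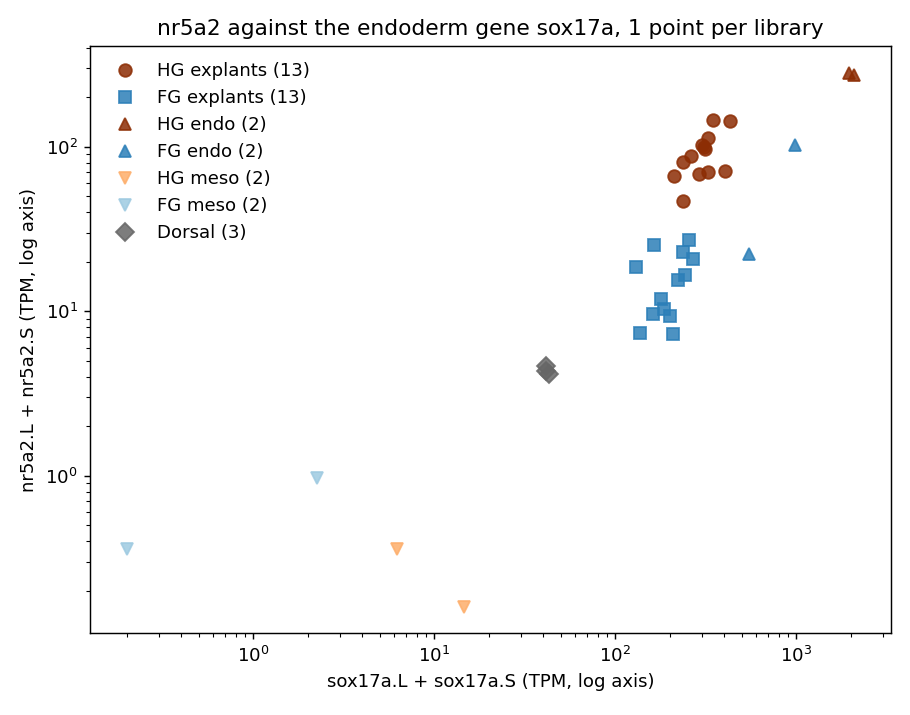
Sum of both nr5a2 copies against the sum of both sox17a copies, 1 point per library, both in TPM on log axes. At like sox17a levels the 13 hindgut explant libraries lie above the 13 foregut explant libraries, and the meso libraries are low in both genes.

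The 15 groups fell into a graded order of mean nr5a2, both copies summed. HG endo was highest at 276.2 ± 7.55 TPM (SD, n = 2). Below it lay HG DMH1 at 120.3 ± 22.9 TPM, HG DMSO at 99.3 ± 40.1 TPM and HG BIO at 92.1 ± 9.85 TPM (SD, n = 3 each), whose ranges overlapped from each to the next. HG noHS at 69.8 ± 1.80 TPM, FG endo at 62.1 ± 56.3 TPM and HG HSdkk1 at 58.4 ± 16.6 TPM followed (SD, n = 2 each), also overlapping, with all libraries of HG BIO above those of HG noHS. Apart from FG endo replicate 1, all of these libraries lay above the foregut explants, with FG noHS at 26.1 ± 1.45 TPM and FG HSdkk1 at 17.6 ± 1.27 TPM (SD, n = 2 each), which did not overlap. FG DMSO at 16.2 ± 6.28 TPM, FG BIO at 12.41 ± 7.20 TPM and FG DMH1 at 9.59 ± 2.29 TPM (SD, n = 3 each) followed, overlapping from each to the next. The dorsal explants at 4.37 ± 0.251 TPM (SD, n = 3) were clear of the groups on either side. FG meso at 0.665 ± 0.431 TPM and HG meso at 0.26 ± 0.141 TPM (SD, n = 2 each) came last and touched each other. Set against the dorsal explants, where nr5a2.L was 3.25 to 3.87 TPM and nr5a2.S 0.78 to 1.02 TPM, both copies were higher in every vehicle explant of either gut region. The log2 difference was 3.71 for nr5a2.L and 4.32 for nr5a2.S in HG DMSO minus dorsal, and 1.30 and 1.77 in FG DMSO minus dorsal.

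The inhibitor DMH1 asks how nr5a2 depends on BMP signalling, and its action on the pathway was read from the BMP target bambi.L, which fell in both regions. It was 57.9 TPM in FG DMH1 and 223 TPM in FG DMSO, a log2 difference of -1.91 (adjusted p = 3.84e-05), and 67.0 TPM in HG DMH1 and 222.0 TPM in HG DMSO, a difference of -1.71 (adjusted p = 0.000159, limma). Rows of the Wnt pathway moved too. The Wnt target sp5.L was 10.1 TPM in FG DMH1 and 1.05 TPM in FG DMSO (adjusted p = 0.00192), while sp5.S, axin2.L and axin2.S were not called. The Wnt antagonist row dkk1.L was 9.60 TPM in HG DMH1 and 0.683 TPM in HG DMSO (adjusted p = 0.00069, limma). Their part in nr5a2 under DMH1 was not tested. In the foregut nr5a2.L was 6.98, 6.66 and 4.33 TPM under DMH1, against 10.55, 7.09 and 13.05 TPM in vehicle. The S copy was 4.92, 2.89 and 2.99 TPM under DMH1 and 4.98, 3.26 and 9.79 TPM in vehicle. The L groups did not overlap and the S groups did, and both copies were lower in 3 of 3 same-number pairs. These pair differences ran from -1.40 to -0.08 for nr5a2.L and from -1.44 to -0.01 for nr5a2.S on the log2 scale. The differences were -0.67 (SE 0.40) for nr5a2.L and -0.53 (SE 0.36) for nr5a2.S, less than 2 standard errors of the fit. These SE leave out the pairing and rest on a spread shared by all 15 groups. That spread includes the FG endo libraries, where nr5a2.L was 11.27 and 73.92 TPM, so it is not the spread of these explants alone. Of all rows 0.229% were higher and 0.509% lower in FG DMH1. The DMH1 foregut explants also had more of the neural markers, 6 of 24 rows being higher, with sums of 563.2 to 723.81 TPM under DMH1 and 258.7 to 596.19 TPM in vehicle. Of 26 rows of blood and endothelium markers 7 were lower, with sums of 666.79 to 815.39 TPM under DMH1 and 1434.66 to 1698.86 TPM in vehicle. Of 41 mesoderm rows 5 were lower, and of 22 epidermal rows 3. The endoderm list overlapped, with 1978.74 to 2510.85 TPM under DMH1 and 1934.2 to 2290.45 TPM in vehicle. The part of these marker lists in the nr5a2 values was not tested.

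In the hindgut nr5a2.L was 69.30, 59.09 and 80.13 TPM under DMH1, against 55.95, 41.56 and 80.59 TPM in vehicle. For nr5a2.S it was 43.20, 43.15 and 65.89 TPM under DMH1 and 31.74, 24.72 and 63.36 TPM in vehicle. The groups overlapped for both copies, with differences of 0.26 (SE 0.40) and 0.42 (SE 0.36). The S copy was higher in 3 of 3 same-number pairs and the L copy in 2 of 3. Of all rows 0.939% were higher and 0.225% lower in HG DMH1, and of 41 mesoderm marker rows 9 were higher and 3 lower. Blood and endothelium markers had 6 of 26 rows lower, with sums of 268.7 to 344.09 TPM in HG DMH1 and 473.1 to 739.87 TPM in HG DMSO. The endoderm list had 0 of 20 rows called by limma. At an unadjusted p under 0.05 (limma) it had 2 higher and 1 lower, against 2183 of 28863 rows in either direction. It summed to 2046.76 to 3014.9 TPM in HG DMH1 and 1196.79 to 2301.3 TPM in HG DMSO, with the higher mean in HG DMH1 like nr5a2. The part of these lists in the nr5a2 values was not tested. Both copies thus had a lower mean in DMH1 foregut and a higher mean in DMH1 hindgut, and the difference between these effects, hindgut minus foregut, was 0.93 (SE 0.57) for nr5a2.L and 0.95 (SE 0.50) for nr5a2.S. With 1 library left out at a time, the foregut difference was -0.89 to -0.49 for nr5a2.L and -0.83 to -0.16 for nr5a2.S. The hindgut difference was 0.04 to 0.51 for nr5a2.L and 0.14 to 0.81 for nr5a2.S. The values nearest 0 were without FG DMSO replicate 3 for foregut nr5a2.S and without HG DMSO replicate 2 for both hindgut copies.

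Under BIO, which raises Wnt signalling, the Wnt target rows axin2.L and sp5.L rose in the foregut and had smaller differences in the hindgut. The feedback gene axin2.L was 71.5 TPM in FG BIO and 7.06 TPM in FG DMSO, a difference of 3.19 (adjusted p = 2.25e-07), and sp5.L, a direct Wnt target, was 112 TPM in FG BIO and 1.05 TPM in FG DMSO (adjusted p = 1.62e-10). In HG BIO axin2.L was 51.8 TPM, against 36.7 TPM in HG DMSO (adjusted p = 1, limma), and the difference between the effects, hindgut minus foregut, was -2.70 (adjusted p = 0.00154) for axin2.L and -4.07 (adjusted p = 6.45e-05) for sp5.L. The other copy, axin2.S, was 11.02 TPM in HG BIO and 3.313 TPM in HG DMSO (adjusted p = 0.0721, limma). In the same groups sp5.L was 14.39 and 3.367 TPM (adjusted p = 0.0855, limma). For axin2.S the difference between the effects was -1.369 and was not called (adjusted p = 0.235, limma). The BMP target bambi.L was lower in FG BIO, at 124 TPM, than in FG DMSO, at 223 TPM (difference -0.84, adjusted p = 0.0359). The BMP response row szl.L was 50.2 TPM in FG BIO and 256.5 TPM in FG DMSO (difference -2.63, adjusted p = 0.0194, limma). The bambi.S row was also called, szl.S was not, and these rows were not called in HG BIO. Their part in nr5a2 under BIO was not tested. Foregut nr5a2.L was 4.94, 5.61 and 12.96 TPM under BIO and 10.55, 7.09 and 13.05 TPM in vehicle. Foregut nr5a2.S was 2.31, 3.74 and 7.68 TPM under BIO and 4.98, 3.26 and 9.79 TPM in vehicle. Both copies overlapped between the groups. The L copy was lower in 3 of 3 same-number pairs and the S copy in 2 of 3, with differences of -0.42 (SE 0.40) and -0.34 (SE 0.36). Without FG DMSO replicate 3 the difference of the S copy was 0.03. Of all rows 1.92% were higher and 4.5% lower in FG BIO, a split of 29.9% higher among the called rows that was 41.5% after median-of-ratios scaling. Of the 26 rows of blood and endothelium markers 16 were lower and 1 was higher, with sums of 336.11 to 471.7 TPM in FG BIO and 1434.66 to 1698.86 TPM in FG DMSO. The endoderm list was also lower in sum, without overlap, at 1470.98 to 1923.02 TPM in FG BIO and 1934.2 to 2290.45 TPM in FG DMSO, though 1 of its 20 rows passed the test. The epidermal list had 7 of 22 rows lower, with sums of 15722.9 to 20676.7 TPM in FG BIO and 23724 to 36472.6 TPM in FG DMSO, and of 41 mesoderm rows 5 were higher and 11 lower. Per 100 TPM of sox17a, nr5a2 overlapped, at 3.46, 4.65 and 7.71 TPM in FG BIO and 6.98, 5.61 and 9.68 TPM in FG DMSO. The part of these lists in the nr5a2 values was not tested. The caudal genes cdx2.L and cdx4.L, which like nr5a2 were high in hindgut, rose in the same explants, cdx2.L being 90.4 TPM in FG BIO and 8.43 TPM in FG DMSO (difference 3.36, adjusted p = 1.76e-08).

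Hindgut nr5a2 did not differ between BIO and vehicle by more than the spread between libraries. The L copy was 59.72, 46.03 and 57.34 TPM in HG BIO, against 55.95, 41.56 and 80.59 TPM in HG DMSO, and the S copy 36.51, 34.77 and 41.77 TPM in HG BIO, against 31.74, 24.72 and 63.36 TPM in HG DMSO. Every BIO value lay within the vehicle range, and the differences were -0.08 (SE 0.40) for nr5a2.L and 0.03 (SE 0.36) for nr5a2.S. The sign turned when single libraries were left out, to 0.16 without HG DMSO replicate 3 and 0.03 without HG BIO replicate 2 for nr5a2.L. For nr5a2.S it turned to -0.08 without HG DMSO replicate 1, -0.25 without HG DMSO replicate 2 and -0.05 without HG BIO replicate 3. Of all rows 0.0173% were higher and 0.0104% lower in HG BIO, which are 5 and 3 of 28863 rows. That fit leaves out the pairing by replicate number. With the number added to the model (the replicate block), 107 of 28665 rows were higher and 95 lower.

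Libraries labelled HSdkk1 held less nr5a2 on average than those labelled noHS. In foregut nr5a2.L was 10.24 and 7.35 TPM in HSdkk1 and 15.80 and 13.31 TPM in noHS, without overlap. Foregut nr5a2.S was 8.21 and 9.30 TPM in HSdkk1 and 9.25 and 13.79 TPM in noHS, with overlap. The differences were -0.68 (SE 0.49) and -0.34 (SE 0.44) for the L and the S copy. In hindgut nr5a2.L was 27.79 and 40.77 TPM in HSdkk1 and 41.11 and 38.75 TPM in noHS, and nr5a2.S 18.85 and 29.40 TPM in HSdkk1 and 27.41 and 32.32 TPM in noHS. These groups overlapped, with differences of -0.24 (SE 0.49) and -0.32 (SE 0.44), and without the lower HSdkk1 library the difference of the L copy was 0.03. The Wnt target axin2.L was 9.71 TPM in HG HSdkk1 and 19.8 TPM in HG noHS, a difference of -1.04 (SE 0.41) that did not pass the test (adjusted p = 1, limma). In foregut 0.0173% of all rows were higher and 0.00693% lower in HSdkk1. In hindgut 0.00693% were higher and 0% lower, with limma. At an unadjusted p under 0.05 (limma) there were 676 of the 28863 rows in hindgut and 524 in foregut, in either direction. Each is a smaller share than the 0.05 that this threshold would pass with no difference in any row. Blood and endothelium markers summed higher in the libraries labelled HSdkk1, at 1451.06 to 1646.78 TPM in FG HSdkk1 and 953.84 to 1156.57 TPM in FG noHS, and at 617.15 to 760.68 TPM in HG HSdkk1 and 471.04 to 614.77 TPM in HG noHS. In hindgut 14 of the 26 rows, and in foregut 4, had an unadjusted p under 0.05, all higher, and spib.L was 38.44 and 7.96 TPM in HG HSdkk1 and 0.28 and 0.48 TPM in HG noHS. The caudal gene cdx2.L was 75.24 and 83.23 TPM in HG HSdkk1 and 166.76 and 142.8 TPM in HG noHS. The endoderm factor hhex.L was 10.15 and 5.18 TPM in HG HSdkk1 and 0.21 and 0.85 TPM in HG noHS. Of the 50 endoderm transcription factor rows, 6 were higher and 6 lower in hindgut at an unadjusted p under 0.05 (limma), and 0% were called. What part these rows and the blood and endothelium markers play in the nr5a2 values was not tested. Heat and transgene cannot be told apart in this design.

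**Figure D3:**
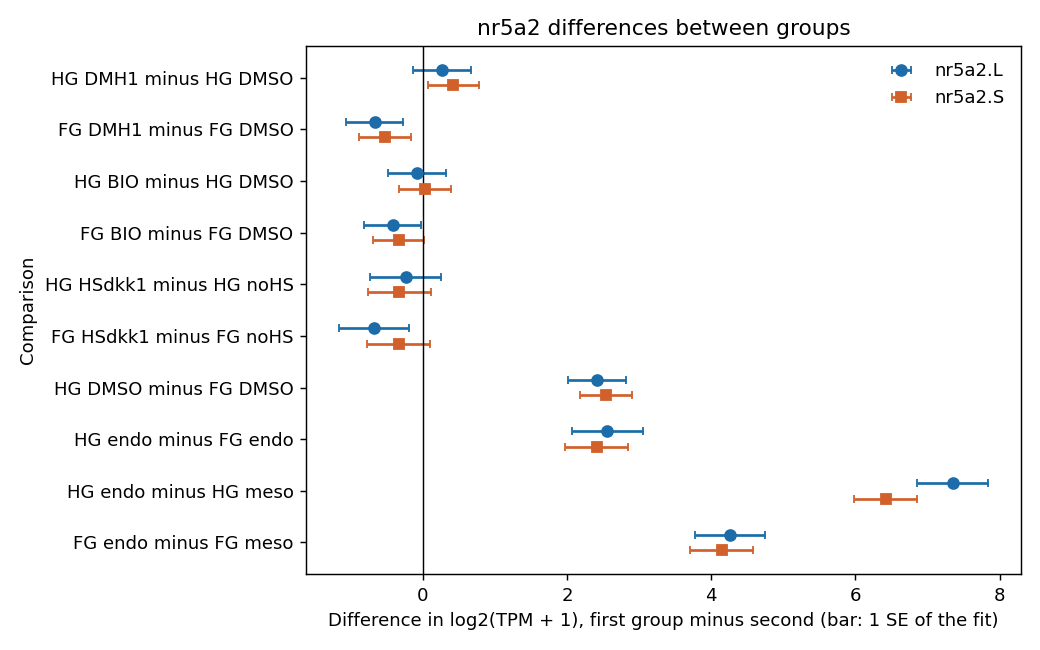
Difference in log2(TPM + 1) for nr5a2.L (circles) and nr5a2.S (squares), the first group minus the second, with bars of 1 SE from the fit to all 37 libraries. The 6 treatment differences lie between -0.68 and 0.42, and the region and layer differences between 2.41 and 7.35.

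The copies moved together. Over the 15 group means of log2(TPM + 1) the correlation of nr5a2.L with nr5a2.S was 0.988, as a description over groups that share experiments and dissection. The L copy was the higher in most libraries, as it made up 60.1% of the summed TPM on average over the 30 libraries with a sum of at least 5 TPM, with a range of 44.14 to 72.56%. The lowest and highest shares were both from foregut tissue, in FG HSdkk1 at 44.14 and 55.50% and in FG endo at 50.49 and 72.56%. In HG vehicle explants the share was 55.98 to 63.80%, and in FG vehicle explants 57.14 to 68.50%, so the regions overlapped in it. TPM corrects for length, but reads of the near-identical copies can be divided between them by the estimate, which makes the share less certain than the sum.

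**Figure D4:**
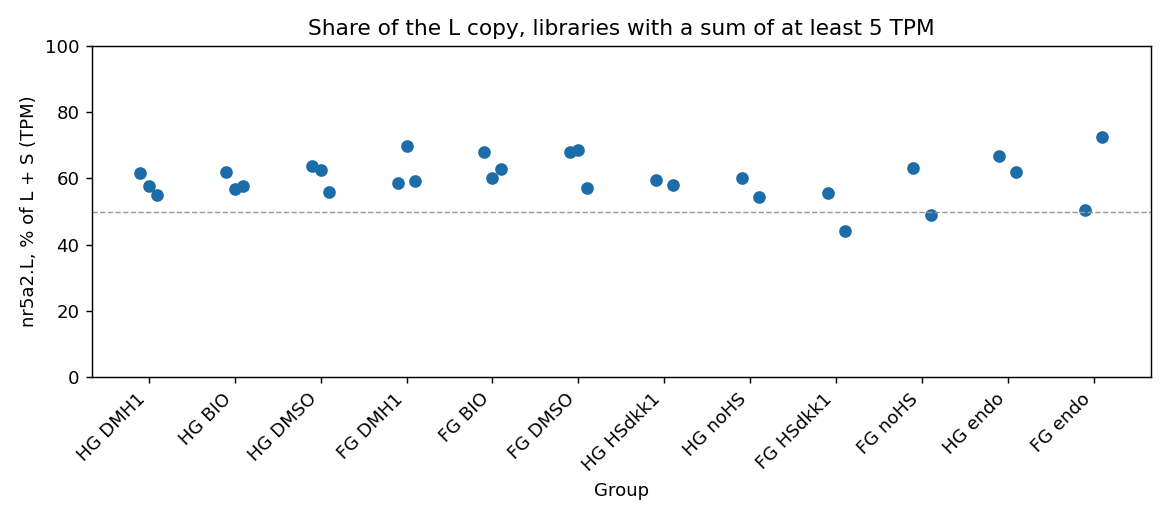
Share of nr5a2.L in the sum of both copies, in percent of TPM, for the 30 libraries whose sum was at least 5 TPM, by group, with a dashed line at equal shares. Shares run from 44.14 to 72.56%, and the hindgut and foregut groups overlap.

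Proteins that NR5A2 works with in mammals were read from a list of 22 co-regulators, 19 of which matched, with 32 rows tested. Beta-catenin, which binds NR5A2 directly, was read in the ctnnb1.S row. It was 447 TPM in HG endo and 263 TPM in HG meso (difference 0.77, adjusted p = 0.000478), and 306 TPM in FG endo and 222 TPM in FG meso (difference 0.46, adjusted p = 0.0389, limma). The foregut call was lost without FG endo replicate 1 (0.52, adjusted p = 0.0533) and without replicate 2 (0.40, adjusted p = 0.14). The coactivators ncoa2.L and ppargc1a.L were lower in endoderm, ncoa2.L being 7.38 TPM in HG endo and 19.8 TPM in HG meso (difference -1.32, adjusted p = 0.000463). In all, 3 rows were higher and 7 lower in HG endo than in HG meso, and 1 was higher and 5 lower in FG endo than in FG meso. The hindgut shares, 9.38% and 21.9% of the 32 rows, lie near the 11.6% and 21.6% of all rows, and the foregut shares were 3.12% and 15.6%, against 8.5% and 18% of all rows. The second count rests on single libraries: 14 were higher without FG endo replicate 1, 0 were higher without FG endo replicate 2 or without either FG meso library, and 15 were lower without FG endo replicate 2. In HG endo against FG endo 6 rows were higher, but 0 without FG endo replicate 1, 19 without replicate 2 and 2 without either HG endo library. The 6 rows are 18.8% of the 32, against 10.7% of all rows, and 0% were lower, against 7.86% of all rows. The share of all rows that were higher moved the same way when an FG endo library was left out. Of the repressors of NR5A2 in mammals, nr0b2.L (SHP) was 2.08 ± 2.94 TPM in HG endo and 0.60 ± 0.849 TPM in FG endo (SD, n = 2 each), and prox1.L had a mean of at most 0.04 TPM in every group. The general corepressor row ncor1.L was 22.2 ± 1.04 TPM in HG endo and 14.4 ± 11.6 TPM in FG endo (SD, n = 2 each). No co-regulator row was called by limma between HG and FG vehicle explants. At an unadjusted p under 0.05 (limma) there were 5 of 32, all lower, against 5018 of 28863 rows in either direction. With the replicate block 1 was called lower, against 2266 of 28665 rows.

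The other nuclear receptors were called in shares not far from those of all rows. Of 60 rows tested, 8 were higher and 15 lower in HG endo than in HG meso, and 5 higher and 15 lower in FG endo than in FG meso, where 9 were higher without FG endo replicate 1 and 2 without replicate 2. Without HG endo replicate 2 there were 5 higher in HG endo. These are 13.3% and 25% of the rows in hindgut, against 11.6% and 21.6% of all rows, and 8.33% and 25% in foregut, against 8.5% and 18% of all rows. The rows that were higher in endoderm included both copies of hnf4g, a receptor of intestinal epithelium in mammals, with hnf4g.L at 5.38 TPM in HG endo and 0 in HG meso (difference 2.51, adjusted p = 4.31e-07). Both copies of the partner receptor rxra were also higher, rxra.S being 6.29 TPM in HG endo and 1.30 TPM in HG meso (adjusted p = 1.27e-05). At these levels both lay far below nr5a2. Lower in endoderm were pparg.S, a lipid-sensing receptor at 0 in HG endo and 31.5 TPM in HG meso (adjusted p = 5.71e-13), and nr2f5.L, of the COUP-TF group, at 0.845 TPM in HG endo and 82.9 TPM in HG meso (adjusted p = 1.14e-11, limma).

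Between HG and FG vehicle explants 2 receptor rows were higher and 3 lower, or 5 lower with the replicate block. At 3.33% and 5% these shares lie near the 2.38% and 5.08% of all rows. The 2 that were higher were the copies of rara, a retinoic acid receptor. The level of rara.L was 47.8 TPM in HG and 17.9 TPM in FG (difference 1.38, adjusted p = 0.000331), and of rara.S 94.3 TPM in HG and 46.1 TPM in FG (difference 1.01, adjusted p = 0.000942, limma). In isolated endoderm 8 rows (13.3%) were higher and 3 (5%) lower in HG endo than in FG endo, against 10.7% and 7.86% of all rows. Among the higher rows was rara.L with 76.4 TPM in HG endo and 17.5 TPM in FG endo (adjusted p = 1.5e-05, limma). That count was 3 higher without FG endo replicate 1, 13 without replicate 2 and 5 without HG endo replicate 2, and 1 lower without HG endo replicate 1. Under DMH1 nr2f5.S and nr2f2.S rose in hindgut, 2 of 60 rows, or 4 with the replicate block and 0 without HG DMH1 replicate 3 or without HG DMSO replicate 2. The 2 rows are 3.33% of the 60, against 0.939% of all rows. Under BIO 2 of 60 fell in foregut, nr1i2.S and nr4a2.L, or 5 with the block, and leaving out single libraries gave 1 in 5 of 6 cases. At 3.33% this share lies below the 4.5% of all rows.

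The endoderm transcription factors, the group nr5a2 belongs with by tissue, were mostly higher in endoderm. Of 50 rows tested 29 were higher and 2 lower in HG endo than in HG meso, and 26 higher and 3 lower in FG endo than in FG meso. The hindgut shares were 58% and 4%, against 11.6% and 21.6% of all rows. The foregut shares were 52% and 6%, against 8.5% and 18% of all rows. In HG endo 1 was lower without HG endo replicate 2 or HG meso replicate 1, and in FG endo 6 were lower without FG endo replicate 2. The pioneer factor foxa2.S was 133 TPM in HG endo and 0.760 TPM in HG meso (difference 6.22, adjusted p = 7.51e-15), and 114 TPM in FG endo and 0.640 TPM in FG meso (difference 6.10, adjusted p = 8.76e-15). Between HG and FG vehicle explants 7 rows were higher and 14 lower, or 14% and 28%, against 2.38% and 5.08% of all rows. The 7 included the caudal genes, which set posterior identity, with cdx4.L at 240 TPM in HG and 1.92 TPM in FG (difference 6.58, adjusted p = 7.68e-12). Both foxa2 rows, also targets of NR5A2 in mammals, were lower, foxa2.L being 15.8 TPM in HG and 41.8 TPM in FG (difference -1.40, adjusted p = 0.00767, limma). The nr5a2 differences had the sign of the cdx genes and were smaller.

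Under the inhibitors factors of this list were called too, the cdx genes again among them in FG BIO. Of the 50 rows 2% were higher and 10% lower in FG DMH1, against 0.229% and 0.509% of all rows. In HG DMH1 the shares were 4% and 6%, against 0.939% and 0.225% of all rows. In FG BIO they were 10% and 12%, against 1.92% and 4.5% of all rows. In FG DMH1 1 row was higher, or 2 with the replicate block and 3 without FG DMSO replicate 1, and 5 were lower, or 3 without FG DMSO replicate 3. Among them tbx3.L, a BMP-responsive factor, was 11.2 TPM in FG DMH1 and 77.1 TPM in FG DMSO (difference -2.72, adjusted p = 7.85e-07). In HG DMH1 2 were higher, the copies of lhx1, and 3 lower, or 1 without HG DMH1 replicate 3 or HG DMSO replicate 3. The level of lhx1.L was 47.9 TPM in HG DMH1 and 5.68 TPM in HG DMSO (difference 2.88, adjusted p = 8.44e-06). In FG BIO 5 rows were higher, all of the cdx family, and 6 lower, among them cebpa.L, which liver and myeloid cells use in mammals, at 3.93 TPM in FG BIO and 96.8 TPM in FG DMSO (difference -4.32, adjusted p = 8.88e-10, limma).

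Genes that NR5A2 is known to act on in mammals were tested as a list of 36, of which 29 matched and 34 rows were tested. They did not move one way with nr5a2. In HG endo 8 were higher and 7 lower than in HG meso, and in FG endo 8 were higher and 6 lower than in FG meso, with 10 higher and 4 lower without FG endo replicate 1 and 7 higher and 9 lower without replicate 2. The higher rows were 23.5% of the 34 in both, against 11.6% and 8.5% of all rows in hindgut and foregut, and the lower ones 20.6% and 17.6%, against 21.6% and 18% of all rows. Members of hepatic transport were among the higher ones, slc10a1.L, the bile acid importer, being 85.7 TPM in HG endo and 0.190 TPM in HG meso (difference 6.20, adjusted p = 2.46e-08). For apom.L, an apolipoprotein, the level was 28.0 TPM in HG endo and 1.41 TPM in HG meso (adjusted p = 8.02e-06). The cell cycle genes were mixed. The cyclin ccnb1.L was 7.79 TPM in HG endo and 0.16 TPM in HG meso (adjusted p = 1.82e-07), whereas myc.S was 26.1 TPM in HG endo and 191 TPM in HG meso (difference -2.91, adjusted p = 9.93e-09, limma). The cdkn1a.L row, a cell cycle inhibitor, was 1.19 TPM in HG endo and 5.30 TPM in HG meso (adjusted p = 0.00086).

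Between HG endo and FG endo 7 target rows were higher and 4 lower, with 3 higher without FG endo replicate 1, 4 higher without HG endo replicate 1 and 2 lower without HG endo replicate 2. The higher ones included slc10a1.L at 85.7 TPM in HG endo and 25.6 TPM in FG endo (difference 2.54, adjusted p = 0.00755), a call lost without FG endo replicate 1 (0.82, adjusted p = 0.452) and kept without replicate 2 (4.25), and cyp8b1.S, a bile acid synthesis enzyme, at 21.4 TPM in HG endo and 3.23 TPM in FG endo (difference 2.41, adjusted p = 0.000805). The shares called between HG endo and FG endo were 20.6% higher and 11.8% lower, against 10.7% and 7.86% of all rows. Between HG and FG vehicle explants 2 were higher and 4 lower, and leaving out single libraries left 0 to 2 higher, the lowest without FG DMSO replicate 1 or 2 or HG DMSO replicate 2 or 3. With all libraries these were 5.88% and 11.8%, against 2.38% and 5.08% of all rows. Without HG DMSO replicate 2 there were 2 lower. The lower ones were both rows of foxa2 and of cdkn1a, with cdkn1a.S at 1.71 TPM in HG and 11.3 TPM in FG (difference -2.17, adjusted p = 8.04e-06, limma). The median of the 34 rows was -0.05 in that comparison, beside -0.12 for all rows. Under DMH1 both rows of mafb fell in both regions, mafb.S being 2.48 TPM in HG DMH1 and 36.5 TPM in HG DMSO (adjusted p = 6.12e-07) and 2.87 TPM in FG DMH1 and 14.97 TPM in FG DMSO (adjusted p = 0.00115). In FG BIO 3 rows were lower, or 5 with the replicate block, cdkn1a.S being 0.947 TPM in FG BIO and 11.3 TPM in FG DMSO (adjusted p = 6.6e-07, limma). The 3 rows are 8.82% of the 34, against 4.5% of all rows.

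The genes with the most similar pattern were found among 14158 rows with a symbol and a mean of at least 5 TPM in some group, by Pearson correlation over the 15 group means of log2(TPM + 1). For nr5a2.L they were rab32.L (0.988), nr5a2.S (0.988), kcnj16.S (0.982), palmd.L (0.976), ttyh2.S (0.969), pak6.L (0.964), tgfbr1.L (0.963) and gatm.L (0.961). For nr5a2.S they were kcnj16.S (0.991), rab32.L (0.989), nr5a2.L (0.988), trim50.S, palmd.L, pak6.L, ido1.L and txnip.L. The top 50 rows of both copies shared 41. Rab32 is a small GTPase of vesicle traffic, kcnj16 encodes a potassium channel subunit, gatm an enzyme of creatine synthesis and tgfbr1 a TGF-beta type I receptor.

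Because these rows were chosen by their likeness over all groups, their levels are a description. The level of rab32.L was 554 TPM in HG endo and 0.585 TPM in HG meso, and 133 TPM in HG DMSO and 12.7 TPM in FG DMSO. That of kcnj16.S was 64.9 TPM in HG endo and 0.055 TPM in HG meso, and 24.9 TPM in HG DMSO and 3.05 TPM in FG DMSO. The highest levels were of gatm.L, with 2361 TPM in HG endo and 92.3 TPM in HG meso. Over the 10 explant groups alone, without layers and dorsal tissue, the rows closest to each copy were kcnj16.S for nr5a2.L (0.990) and rab32.L for nr5a2.S (0.995), while ttyh2.S fell to rank 220 for nr5a2.L and txnip.L to rank 249 for nr5a2.S. These are correlations over few groups that share experiments, and no p is given.

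**Figure D5:**
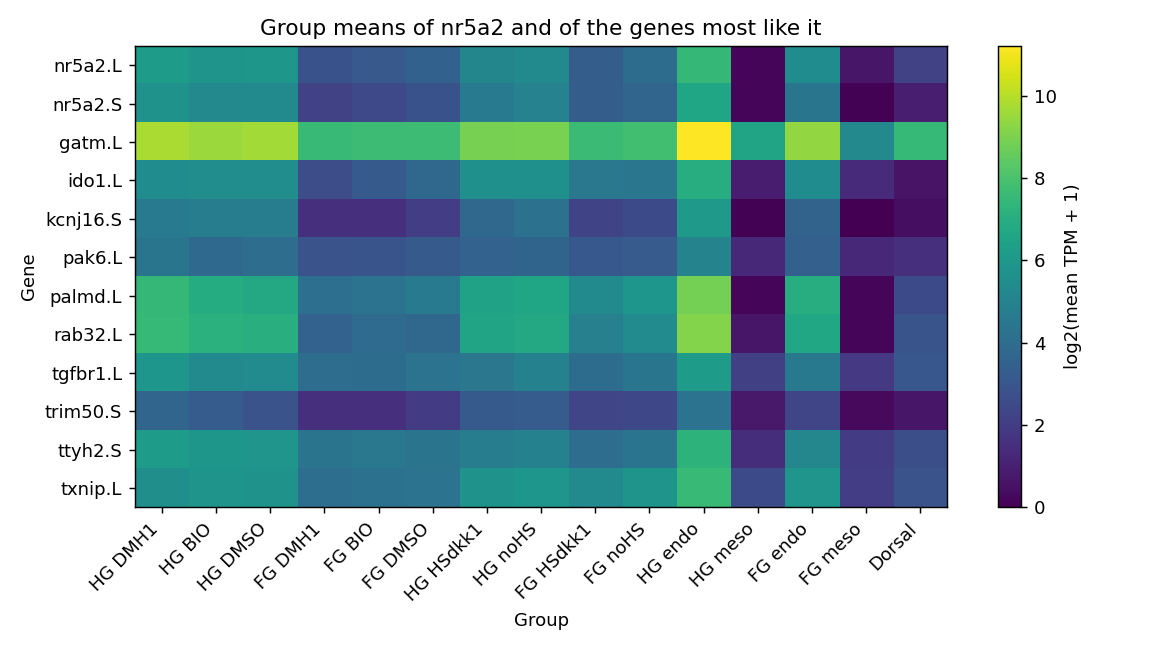
Group means as log2(mean TPM + 1) of nr5a2.L, nr5a2.S and the genes most like them, with groups in columns and brighter colours for higher levels. All rows are brightest in HG endo and darkest in the meso or dorsal columns, and gatm.L is the most abundant at 2361 TPM in HG endo.

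The named rows nearest to nr5a2 on the chromosome had other patterns. Genes with LOC or MGC names, and genes with no row of the same name in the data, were passed over. Among the genes left, in the RefSeq order of assembly Xenopus_laevis_v10.1, nr5a2.L lies between ptprc.L and ddx59.L, and nr5a2.S between atp6v1g3.S and wdr47.S. The proton pump subunit gene atp6v1g3.L, next beyond ptprc.L, was listed at 0 in HG endo and 398 TPM in HG meso, against 178 and 0.10 TPM for nr5a2.L in the same groups. The helicase gene ddx59.L was 8.68 TPM in HG endo and 7.92 TPM in HG meso. Of the genes left, no neighbour within 2 places on either side of either copy reached 10 TPM in HG endo.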

How the data were processed

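The authors deposited one table of TPM values for gene rows, made from TruSeq stranded mRNA libraries with FastQC, Trimmomatic and RSEM, per the submitters' processing notes. Tool versions, genome build and annotation are not given in the sources used here. All 37 columns were used. Of these 33 matched a sample by name and 4 hindgut heat shock columns matched only their group.

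Values were taken as log2(TPM + 1), and rows reaching 1 TPM in 2 or more libraries were kept (28863 of 40271, 71.7%). A single limma 3.58.1 model (trend option, R 4.3.3) estimated the 15 group means from all libraries, and each comparison is a contrast. Rows were called at a Benjamini-Hochberg adjusted p under 0.05 over all rows. The fit was tested on simulated data. SE is the standard error of a log2 difference from the fit, in which a row has a spread shared by all 15 groups. The sign ± gives the SD between libraries. No p is given for nr5a2.

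The nr5a2 rows and the gene lists were chosen with earlier results of these data known. Genes named from a list are among its called members with the smallest p, with axin2, sp5, bambi, szl and dkk1 as treatment checks, and genes like nr5a2 are the 8 closest to each copy. List symbols were matched to rows by name with .L or .S. Rows for the ratio to sox17a and for chromosome neighbours were added after seeing the data.

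Pairing by replicate number was checked from each library's deviations from its group mean. Among the inhibitor groups 45 same-number pairs correlated at 0.253 to 0.557, against at most 0.119 for different numbers. The numbers were therefore taken to pair there, but the model as reported has no term for them. Its SE and p in the inhibitor comparisons leave the pairing out. In the layers 12 pairs were at 0.102 to 0.335 and in foregut heat shock 2 were at 0.502. With 2 libraries in a group the numbers mirror each other and give 2 pairs in a comparison, so they were not taken to pair there. Alternatives were pseudocounts of 0.1 and 5 TPM, median-of-ratios scaling, the replicate block, copies summed, no filter, a 5 TPM filter, and each library left out. Where leaving out a library leaves 1 in a group, the spread of the other groups stands in for its own. Gene neighbours come from RefSeq names that match a row, without LOC and MGC names, with no coordinates printed because the builds could not be compared. Plots were made in Python 3.11.15 with matplotlib 3.10.9.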

Additional observations from a re-analysis of the deposited data

Results flagged for a closer look

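Some effects were flagged for a possible difference between hindgut and foregut. Each difference below is the hindgut effect minus the foregut effect on the log2(TPM + 1) scale. For nr5a2.S the DMH1 effect was 0.42 in hindgut and -0.53 in foregut, a difference of 0.95 (SE 0.50). The same-number pairs were higher under DMH1 in 3 of 3 in hindgut and lower in 3 of 3 in foregut. It was flagged by these signs alone, and the pairs nearest 0 were 0.06 in hindgut and -0.01 in foregut. The difference was less than 2 standard errors of the fit, which leaves out the pairing by replicate number. It was not tested, because the gene was chosen on these libraries. Where a difference was tested, it was a contrast in the limma model, adjusted over all 28863 rows, and it was called for 43 rows under DMH1, 239 rows under BIO and 2400 rows between the layers.

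Under DMH1 both copies of lhx1, a LIM homeobox factor, rose in hindgut. For lhx1.L the effect was 2.88 in hindgut and -0.05 in foregut, a difference of 2.93 (adjusted p = 0.00557). For lhx1.S it was 3.07 in hindgut and -0.32 in foregut, a difference of 3.39 (adjusted p = 0.00277).

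Under BIO the Wnt target axin2.L had effects of 0.49 in hindgut and 3.19 in foregut, a difference of -2.70 (adjusted p = 0.00154). Its other copy axin2.S had 1.525 in hindgut and 2.894 in foregut, a difference of -1.369 that was not called (adjusted p = 0.235). The Wnt target sp5.L had 1.76 and 5.82 in hindgut and foregut, a difference of -4.07 (adjusted p = 6.45e-05), and sp5.S had 0.98 and 4.92, a difference of -3.95 (adjusted p = 0.000606). The caudal gene cdx2.L had effects of 0.41 in hindgut and 3.36 in foregut (difference -2.95, adjusted p = 0.000164), and cdx2.S 0.43 and 4.22 (difference -3.79, adjusted p = 0.000911). For cdx4.L they were 0.04 in hindgut and 3.76 in foregut (difference -3.72, adjusted p = 0.000344), and for cdx4.S 0.09 and 3.44 (difference -3.35, adjusted p = 0.000336). The myeloid and liver factor cebpa had a larger fall in foregut, with -1.20 in hindgut and -4.32 in foregut for cebpa.L (difference 3.11, adjusted p = 0.00016) and -0.74 and -3.58 for cebpa.S (difference 2.84, adjusted p = 5.78e-05). The cell cycle inhibitor row cdkn1a.L had -0.37 in hindgut and -2.30 in foregut (difference 1.92, adjusted p = 0.0101), and cdkn1a.S -0.28 and -2.65 (difference 2.37, adjusted p = 0.00186).

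Between the layers, endo minus meso, myc.S was -2.91 in hindgut and 0.95 in foregut, a difference of -3.86 (adjusted p = 1.04e-06). The cyclin ccne1.S was 0.08 in hindgut and 1.25 in foregut (difference -1.16, adjusted p = 0.00629), and ccnb1.L 2.94 in hindgut and 0.65 in foregut (difference 2.29, adjusted p = 0.00365). The COUP-TF gene nr2f5.S was -5.15 in hindgut and -3.59 in foregut (difference -1.55, adjusted p = 0.027), a call lost without FG endo replicate 2 (-0.96, adjusted p = 0.133), while without replicate 1 it was -2.14 (adjusted p = 0.00159). No group had as many as 4 libraries, so single libraries were not tested as outliers.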

How the results depend on the processing

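Of 238 recomputed differences of nr5a2, over 10 comparisons and 2 copies, 216 kept their sign and moved by less than the spread between libraries, 13 moved by more and 9 reversed. The 216 include those with the replicate block, no filter and the 5 TPM filter. These settings cannot change the differences and returned the reported values, so they are no measure of stability. With copies summed, a single value stood for both copies. In all, 16 of the 20 differences kept their sign in every setting. The layer differences, endo minus meso, depend on how values near 0 are treated. With a pseudocount of 0.1 TPM they were 6.83 for nr5a2.S in foregut and 10 and 8.56 for nr5a2.L and nr5a2.S in hindgut. With 5 TPM they were 2.68 and 2.19 in foregut and 5.16 and 4.32 in hindgut for nr5a2.L and nr5a2.S. With median-of-ratios scaling they were 7.67 and 6.73 in hindgut for the same copies, and with copies summed 4.90 in foregut and 7.79 in hindgut. The HG BIO difference of nr5a2.S was -0.0083 with median-of-ratios scaling and -0.0398 with copies summed. Leaving out 1 library at a time gave -0.25 to 0.41 for that difference, -0.31 to 0.16 for nr5a2.L in HG BIO, -0.72 to 0.028 for nr5a2.S in FG BIO, -0.51 to 0.030 for nr5a2.L in HG HSdkk1, and 6.30 to 6.54 for nr5a2.S between the hindgut layers. Apart from the added constant, the summing and the samples left out, the cause was not tested. The replicate block could not change an nr5a2 difference, because each number occurs once in each group compared. The hindgut heat shock columns carry no shared number, so no block was possible there.

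The number of all rows called moved more. With the replicate block it was 563 in FG DMH1, 711 in HG DMH1, 3679 in FG BIO, 202 in HG BIO and 3379 between HG and FG vehicle explants, against 213, 336, 1855, 8 and 2155 without it. Between the layers and their regions, where the numbers were not taken to pair, it was 9675 in FG endo against FG meso, 11545 in HG endo against HG meso and 7709 in HG endo against FG endo with the block, and 7636, 9593 and 5355 without it. Without the block it was 99 in FG DMH1 and 217 in HG DMH1 with a pseudocount of 0.1 TPM, 121 and 203 with copies summed, and 372 in FG DMH1 with a pseudocount of 5 TPM. In HG BIO it was 24 with a pseudocount of 5 TPM and 14 with no filter. Under heat shock, with 7 in foregut and 2 in hindgut, it was 31 and 25 with no filter and 1 in each with a 5 TPM filter, while hindgut had 5 with a pseudocount of 0.1 TPM and 11 with median-of-ratios scaling. The share of called rows that were higher was 36.4% with median-of-ratios scaling and 62.5% as reported in HG BIO, and 72.7% and 100% in HG HSdkk1. Leaving out single libraries gave 114 (FG DMSO replicate 3) to 359 (FG DMSO replicate 1) in FG DMH1, 139 (HG DMSO replicate 2) in HG DMH1, 1033 (FG DMSO replicate 3) in FG BIO, 1 to 26 in HG BIO, 2 to 15 and 0 to 14 in foregut and hindgut heat shock, and 3714 to 8594 between HG endo and FG endo. Of 609 recomputed counts of called list members, 513 were within 1.5 times the reported count. TPM holds no read depth, so what depth limits is unknown.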

Other observations

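Blood and vessel genes were lower in the foregut explants under BIO. Both copies of spib, a factor of primitive myeloid cells in Xenopus, fell, spib.L being 2.48 TPM in FG BIO and 167 TPM in FG DMSO (log2 difference -5.64, adjusted p = 9.91e-10, limma). The myeloid peroxidase gene mpo.S was 40.4 TPM in FG BIO and 478 TPM in FG DMSO (difference -3.65, adjusted p = 0.00076). The blood and vessel factors runx1.L and tal1.S also fell, with 0.693 TPM in FG BIO and 19.6 TPM in FG DMSO for runx1.L (adjusted p = 1.18e-07) and 1.52 TPM in FG BIO and 21.4 TPM in FG DMSO for tal1.S (adjusted p = 1.31e-05). In HG BIO 0 of the 26 rows were called by limma. At an unadjusted p under 0.05 (limma) there were 6, all lower, against 1795 of 28863 rows in either direction. The sums overlapped at 371.35 to 604.36 TPM in HG BIO and 473.1 to 739.87 TPM in HG DMSO.

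Among the mesoderm markers under DMH1 in hindgut, the muscle factor myod1.S was 35.6 TPM in HG DMH1 and 3.73 TPM in HG DMSO (difference 3.18, adjusted p = 0.00273). The somite factor tcf15.L was 18.7 TPM in HG DMH1 and 2.03 TPM in HG DMSO (adjusted p = 6.37e-05), and bmp4.L fell, with 30.6 TPM in HG DMH1 and 78.8 TPM in HG DMSO (difference -1.33, adjusted p = 0.000544, limma).

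Per 100 TPM of sox17a, nr5a2 was lower in isolated hindgut endoderm than in the hindgut vehicle explants, with 13.00 and 14.47 TPM in HG endo and 31.29 to 33.44 TPM in HG DMSO. Its own level ran the other way, with 276.2 TPM in HG endo and 99.3 TPM in HG DMSO for the sum of both copies. These groups come from different experiments and the difference was not tested.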
